A study of Mus musculus with 61 samples.

Results

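Collagen genes were described in adipose tissue from 8 inbred mouse strains, the founders of the Diversity Outbred population. They were found by their symbols, Col followed by a type number, the letter a and a chain number. This pattern matched 44 of 21169 genes. 43 of them encode collagen chains and 1, Col4a3bp, encodes a ceramide transporter that binds a type IV collagen and was left out. 41 of the 43 passed the filter on low counts. Col2a1 and Col9a2, known from cartilage, averaged 0.079 and 0.0469 CPM (counts scaled to the library total) and were not tested.

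The mRNA of 61 libraries had been sequenced. The strains, named as in the labels, were 129 (7 libraries), AJ (7), B6 (8), Cast (7), NOD (8), NZO (8), PWK (8) and WSB (8). All mice had eaten a high-fat, high-sugar diet, given in the labels as 45 percent fat, and no group on another diet is part of the comparison. Substrain, sex, age and fat depot are not given in the labels. The libraries are numbered within a strain but not said to come 1 to a mouse, so the p-values measure the spread between libraries, part of which may be technical. Each strain was set against the unweighted mean of the other 7 strains, and a difference is called at an adjusted p under 0.05 over all 18603 genes tested.

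Library totals ran from 19851580 to 61277576 counts. Summed adipocyte markers, among them Adipoq and Plin1, stood between 8329 and 23723 CPM in every library, so adipocyte RNA was present throughout. RNA of other tissues was also present. Summed liver markers exceeded 500 CPM in 5 libraries, genital duct markers exceeded 300 CPM in 5 and skeletal muscle markers exceeded 300 CPM in 3. B6 replicate 5 had 298 CPM of genital duct markers, just under that limit, and was kept where the libraries over it were left out. In every strain Xist, which is transcribed from the inactive X chromosome, was near 0 in some libraries and high in others. In 129, B6, NOD and NZO replicates 1 to 4 were the high ones and the later numbers the low ones, so replicate number and Xist cannot be told apart there. In bulk tissue, fewer cells of a type and less RNA per cell cannot be told apart.

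Collagens are the main structural proteins of the extracellular matrix. Their chains are hydroxylated and folded into helical trimers inside the cell, secreted, trimmed, and cross-linked outside it. Fibrillar types I, III and V form the load-bearing fibrils of the tissue stroma and are made largely by fibroblasts and adipocyte progenitors. Type IV chains form the sheet of the basement membrane that surrounds each adipocyte and underlies the endothelium. Type VI chains form beaded filaments between fibrils and basement membrane, and a fragment cleaved from the Col6a3 chain, endotrophin, has been studied in mice as a factor in adipose fibrosis.

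Per kilobase of exon, the basement membrane chain Col4a1 had the highest collagen level in this fat, at 271 CPM per kb averaged over all libraries. Col3a1, the chain of type III collagen, followed with 217, and Col4a2, the partner of Col4a1, with 194. Col6a1 reached 157, Col1a1 113 and the multiplexin Col15a1 99.2 CPM per kb. Together all collagens took up 1.8% ± 0.459 of library counts in NZO, against 0.663% ± 0.113 in WSB and 0.649% ± 0.112 in Cast (SD, n = 8, 8 and 7). The other 5 strains averaged 1.1% to 1.31%.

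Expression of 39 of the 41 tested collagens differed among the strains (edgeR quasi-likelihood F-test), where 89.9% of all genes did. The exceptions were Col4a5 (adjusted p = 0.0805) and Col6a5 (adjusted p = 0.232). Strain accounted for a median of 49.1% of the variance of the collagens and 48.7% of that of all genes tested. These shares are a description, without a test between the lists. The largest shares of variance were those of Col28a1 (83.7%), Col4a6 (81.5%) and Col6a1 (73.5%).

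NZO, Cast and WSB had the most called collagens, and also the most called genes of any kind. The called shares of the tested collagens were 68.3% in NZO, 58.5% in Cast and 56.1% in WSB. That of Cast was near the share of all genes, though its calls were mostly lower. In NZO, 20 collagens were higher and 8 lower than in the other strains, with a median log2 fold change of 0.46. Of all genes, 53.9% were called in NZO, 27.2% higher and 26.6% lower. In Cast, 5 were higher and 19 lower, with a median of -0.83, where 56.2% of all genes were called, 29.6% higher and 26.6% lower. WSB had 4 higher and 19 lower with a median of -0.52, where 49.3% of all genes were called, 25.6% higher and 23.7% lower. Median log2 fold changes over all genes were -0.02 in NZO, 0.02 in Cast and -0.01 in WSB.

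The remaining strains had fewer called collagens and fewer called genes. The called shares of their tested collagens were 39% in PWK, 31.7% in 129 and in NOD, 24.4% in B6 and 22% in AJ. In PWK 11 were higher and 5 lower, where 43.6% of all genes were called, 24.6% higher and 19.0% lower. The strain 129 had 10 higher and 3 lower, where 18.6% of all genes were called, 10.8% higher and 7.78% lower. Only 2 collagens were called in 129 without the 5 libraries rich in genital duct markers, which include 129 replicates 6, 7 and 9. Calls over all genes fell there as well, to 2036 of 19129 from 3451 of 18603. Replicates 6, 7 and 9 are also the 129 libraries with Xist near 0, and leaving them out lowers the number of libraries, so these cannot be told apart. NOD had 9 and 4, where 26.5% of all genes were called, 14.7% higher and 11.8% lower. AJ had 7 and 2, where 23.0% were called, 13.4% higher and 9.59% lower. B6 had 6 and 4, where 26.3% were called, 14.6% higher and 11.7% lower. Their median log2 fold changes over collagens lay between 0.10 in B6 and 0.29 in NOD. Cast had the lowest mean of the 8 strains for 16 of the 41 collagens and WSB for 8, whereas NZO had the highest for 15.

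**Figure D1:**
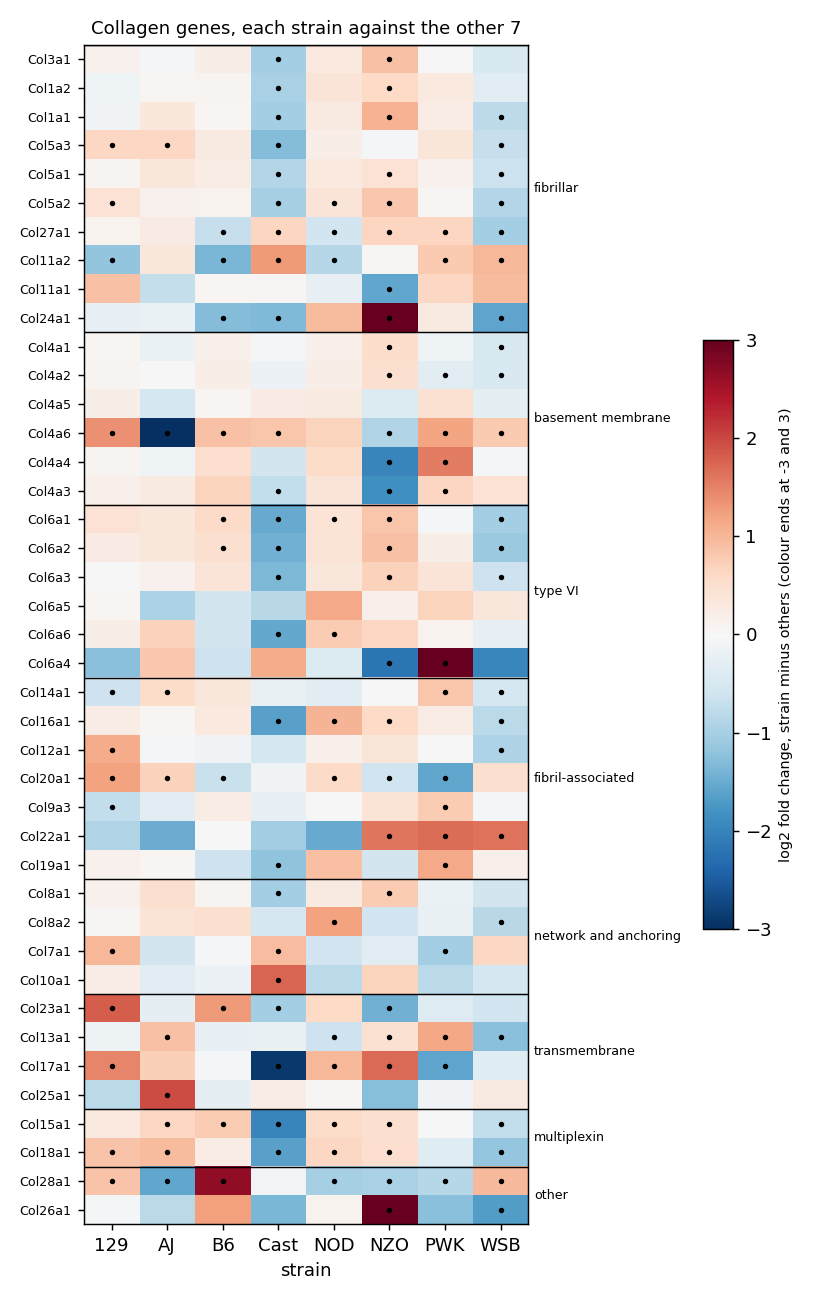
Log2 fold change of each of the 41 tested collagens (rows, by class) in each strain against the mean of the other 7 (columns); colour ends at -3 and 3 and a dot marks an adjusted p under 0.05. Cast and WSB are mostly blue and NZO mostly red in the fibrillar and type VI rows. Of the basement membrane rows, Col4a1 and Col4a2 follow that pattern in NZO and WSB but are not called in Cast. Col4a3, Col4a4 and Col4a6 are lower in NZO.

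The fibrillar collagens were higher in NZO and lower in Cast and WSB. Of 10 tested, 7 were higher and 1 lower in NZO (median log2 fold change 0.62), 2 higher and 7 lower in Cast (-0.98), and 1 higher and 6 lower in WSB (-0.67). Called shares were 80% in NZO, 90% in Cast and 70% in WSB, against 53.9%, 56.2% and 49.3% of all genes. In the other strains between 0 and 2 were higher and between 0 and 3 lower. There 10% to 30% were called, against 18.6% to 43.6% of all genes. As a share of library counts the class made up 0.824% ± 0.244 in NZO, 0.233% ± 0.109 in Cast and 0.287% ± 0.0668 in WSB, against 0.5% to 0.552% in the other strains (SD, n = 8, 7 and 8). Within NZO it was 0.93% to 1.18% in replicates 1 to 4 and 0.472% to 0.744% in replicates 5 to 8. Libraries of AJ ran from 0.41% to 0.79%.

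Col1a1, on chromosome 11 (GRCm38, 94936224 to 94953042), encodes the chain that fills most places in type I collagen. Its lowest, median and highest CPM were 681, 1316 and 1865 in NZO, 152, 349 and 697 in Cast, and 230, 413 and 652 in WSB. In the other strains they were 604, 766 and 1299 in AJ, 392, 886 and 1105 in NOD, 350, 768 and 1518 in PWK, 396, 676 and 1071 in B6, and 448, 650 and 1070 in 129. Every library range overlapped another, yet all NZO libraries but 1 lay above all Cast and WSB libraries. Col1a1 was higher in NZO (log2 fold change 1.05 ± 0.20 SE, adjusted p = 1.22e-05, 8 of 8 libraries on that side) and lower in Cast (-1.02 ± 0.25, adjusted p = 5.26e-04, 6 of 7) and WSB (-0.79 ± 0.23, adjusted p = 0.00412, 8 of 8), by edgeR. No neighbouring pair in the order NZO, AJ, NOD, PWK, B6, 129, WSB, Cast differed by itself, and 15 of the 28 pairs of strains did.

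Col1a2, the other type I chain, averaged 1131 ± 233 CPM in NZO and 435 ± 179 in Cast, and was called in both (0.60 ± 0.16 and -0.97 ± 0.19). Col3a1 had 1781, 3589 and 4975 CPM in NZO and 372, 1036 and 1941 in Cast (lowest, median and highest), and strain means of 1528 to 2405 CPM in the rest. Its log2 fold change was 0.88 ± 0.19 in NZO (adjusted p = 1.23e-04) and -1.02 ± 0.24 in Cast (adjusted p = 2.90e-04). In WSB the value was -0.46 with an adjusted p of 0.0729. Col5a2, a type V chain that takes part in starting and limiting fibrils, had the largest share of variance between strains in the class and was higher in NZO (0.80 ± 0.14) and lower in Cast (-0.99 ± 0.17) and WSB (-0.89 ± 0.16), with adjusted p of 1.50e-06, 1.55e-06 and 4.59e-06 in edgeR. Col5a1, its partner, was higher in NZO (0.43 ± 0.13) and lower in Cast (-0.89 ± 0.16) and WSB (-0.64 ± 0.15). Col5a3, the third type V chain, was lower in Cast, at 217 ± 114 CPM (-1.31 ± 0.25), and WSB, at 315 ± 163 (-0.69 ± 0.22), and higher in 129 and AJ (0.61 each), but was not called in NZO.

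Cast libraries were uneven. Replicates 1, 5 and 6 had 162, 152 and 183 CPM of Col1a1, and replicates 2, 3 and 8 had 697, 554 and 499. For Col6a1, a type VI chain, the same libraries had 129, 135 and 164 CPM and 366, 348 and 347 CPM. These 3 low and 3 high libraries were the same for both genes. NZO libraries were uneven for Col1a1 as well. Replicates 1 to 4 had 1865, 1517, 1530 and 1686 CPM, and replicates 5 to 8 had 681, 945, 1115 and 1078. Xist was at 450 to 668 CPM in the first group and at 2.11 CPM or less in the second. Its part in this split was not tested.

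Some fibrillar genes went the other way. Col11a2, a type XI chain best known from cartilage, averaged 6.11 ± 3.91 CPM in Cast and 5.18 ± 2.27 in WSB, and between 1.23 and 4.53 in the other strains (SD, n = 7 and 8). It was higher in Cast (1.27 ± 0.24, adjusted p = 1.07e-05, 5 of 7 libraries) and WSB (1.00 ± 0.23, adjusted p = 3.69e-04, 8 of 8), and lower in B6, 129 and NOD. Col27a1, a fibrillar chain also known from cartilage, was higher in Cast, NZO and PWK by the same log2 fold change, 0.64, and lower in WSB (-1.01 ± 0.23). Col11a1, the partner of Col11a2 in type XI collagen, was at most 2.58 CPM in any library and lower in NZO (-1.56 ± 0.54, adjusted p = 0.0136).

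Col24a1 was lowly expressed and was singled out after its values were seen. Its lowest, median and highest CPM were 0.914, 2.58 and 5.19 in NZO, and every other strain averaged 0.605 CPM or less. NOD replicate 6 at 2.19 CPM was the highest library outside NZO. The log2 fold change in NZO was 3.45 ± 0.33 (edgeR, adjusted p = 4.23e-13). This chain of type XXIV collagen has been described in developing bone.

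**Figure D2:**
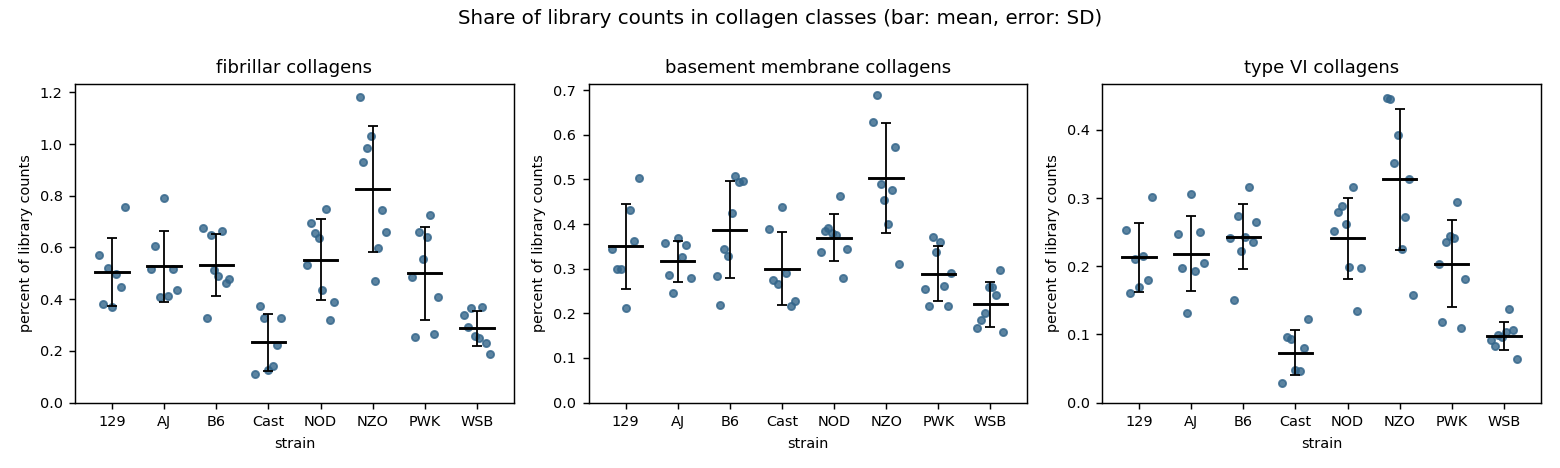
Percent of library counts in the fibrillar, basement membrane and type VI collagens, with 1 point per library, a bar at the strain mean and an error bar of 1 SD. In Cast the fibrillar and type VI shares are low (0.233% and 0.0734%) while its basement membrane share (0.301%) lies among those of the other strains.

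Type VI collagen followed the fibrillar pattern. In NZO 3 of 6 tested chains were higher and 1, Col6a4, lower (median log2 fold change 0.65). In Cast 4 were lower and none higher (-1.39), and in WSB 3 were lower and none higher (-0.81). Called shares were 66.7% in NZO and in Cast and 50% in WSB, against 53.9%, 56.2% and 49.3% of all genes. That of WSB was thus near the background. Type VI genes took up 0.328% ± 0.104 of counts in NZO, 0.0734% ± 0.0334 in Cast and 0.0977% ± 0.0212 in WSB, with 0.204% to 0.244% in the other strains (SD, n = 8, 7 and 8).

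Col6a1 lies on chromosome 10 (GRCm38, 76708792 to 76726168) and encodes a chain present in every type VI trimer. Its lowest, median and highest CPM were 129, 248 and 366 in Cast and 257, 339 and 437 in WSB. They were 406, 1087 and 1589 in NZO, 391, 613 and 907 in PWK, 483, 883 and 1057 in NOD, 492, 741 and 978 in AJ, 601, 887 and 1070 in B6, and 607, 804 and 1084 in 129. All Cast libraries lay below all libraries of PWK, NZO, NOD, AJ, B6 and 129, and overlapped only with WSB. Col6a1 was lower in Cast (log2 fold change -1.52 ± 0.19 SE, adjusted p = 1.71e-09, 7 of 7 libraries) and WSB (-1.01 ± 0.17, adjusted p = 3.26e-06, 8 of 8) and higher in NZO (0.84 ± 0.15, adjusted p = 3.76e-06, 7 of 8), by edgeR. It was also higher in B6 (0.57, adjusted p = 0.00344) and NOD (0.42, adjusted p = 0.037), where the call was lost without the libraries rich in genital duct markers (0.41, adjusted p = 0.0709). In the order NZO, B6, 129, NOD, AJ, PWK, WSB, Cast the sole neighbours that differed were PWK and WSB (0.83 ± 0.21, adjusted p = 0.00123).

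Col6a2, its partner, and Col6a3, the large chain that contains endotrophin, moved in the same strains. Col6a2 averaged 1058 ± 430 CPM in NZO, 258 ± 115 in Cast and 315 ± 48.1 in WSB, against 687 to 820 in the other strains. Col6a3 averaged 603 ± 192 CPM in NZO, 176 ± 122 in Cast and 272 ± 86.7 in WSB, against 398 to 499. Both were called in these 3 strains, with log2 fold changes of 0.89 and 0.69 in NZO, -1.44 and -1.34 in Cast, and -1.11 and -0.62 in WSB.

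The later type VI chains were less certain. Col6a5 and Col6a6 had estimates that were not whole numbers in 96.7% of libraries, so their values are less sure than those of the other chains. Col6a6 was lower in Cast (-1.54, adjusted p = 1.65e-04) and higher in NOD (0.75, adjusted p = 0.0306), a call lost without the libraries rich in genital duct markers (adjusted p = 0.0577). The lower call of Col6a4 in NZO (-2.19, adjusted p = 0.0424) was lost under 8 alternatives, with values between -2.18 and -0.52, the last with limma on the deposited log2 values. Col6a4 was called in PWK at a log2 fold change of 4.52 ± 0.58, but 6 of 8 PWK libraries held 0.0258 to 0.416 CPM and the 2 others 19.7 (replicate 1) and 299 (replicate 6). Without replicate 6 the value was 0.82 (adjusted p = 0.322), and without both it was -2.48 (adjusted p = 0.0128). Smooth muscle markers summed to 6139 CPM in PWK replicate 6, the highest of all libraries; their part in the Col6a4 level was not tested.

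The basement membrane class did not share 1 direction. In NZO 2 of 6 chains were higher and 3 lower (median log2 fold change -0.66), in Cast 1 and 1 (-0.12), in WSB 1 and 2 (-0.15), and in PWK 3 and 1 (0.56). Called shares were 83.3%, 33.3%, 50% and 66.7%, against 53.9%, 56.2%, 49.3% and 43.6% of all genes. The chain higher in Cast and in WSB, and 1 of those higher in PWK, was Col4a6. These calls did not hold with AJ left out (0.14, 0.09 and 0.50). The other WSB calls were all lower. The share of counts of the class was 0.503% ± 0.123 in NZO, 0.301% ± 0.0824 in Cast and 0.221% ± 0.0504 in WSB, and 0.289% to 0.387% in the other strains (SD, n = 8, 7 and 8). Col4a1 and Col4a2, which form the common type IV trimer of most basement membranes, averaged 2019 and 1283 CPM over all libraries, against 34.8 CPM for Col4a5 and 14.4 CPM for Col4a6.

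Col4a1 lies on chromosome 8 (GRCm38, 11198423 to 11312826), head to head with Col4a2, and the annotated exons of the pair overlap by 22 bases on opposite strands. Its lowest, median and highest CPM were 1555, 2649 and 3943 in NZO, 1202, 1500 and 1759 in WSB, and 1394, 1852 and 2893 in Cast. Strain means in the rest lay between 1753 in AJ and 2189 in NOD. Col4a1 was higher in NZO (0.52 ± 0.11, adjusted p = 5.44e-05, 7 of 8 libraries) and lower in WSB (-0.48 ± 0.12, adjusted p = 5.75e-04, 8 of 8), by edgeR. In Cast its log2 fold change was -0.06 ± 0.12 (adjusted p = 0.71), where Col1a1 and Col6a1 were at -1.02 and -1.52. Col4a2 was called in NZO (0.49), WSB (-0.45) and PWK (-0.35).

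**Figure D3:**
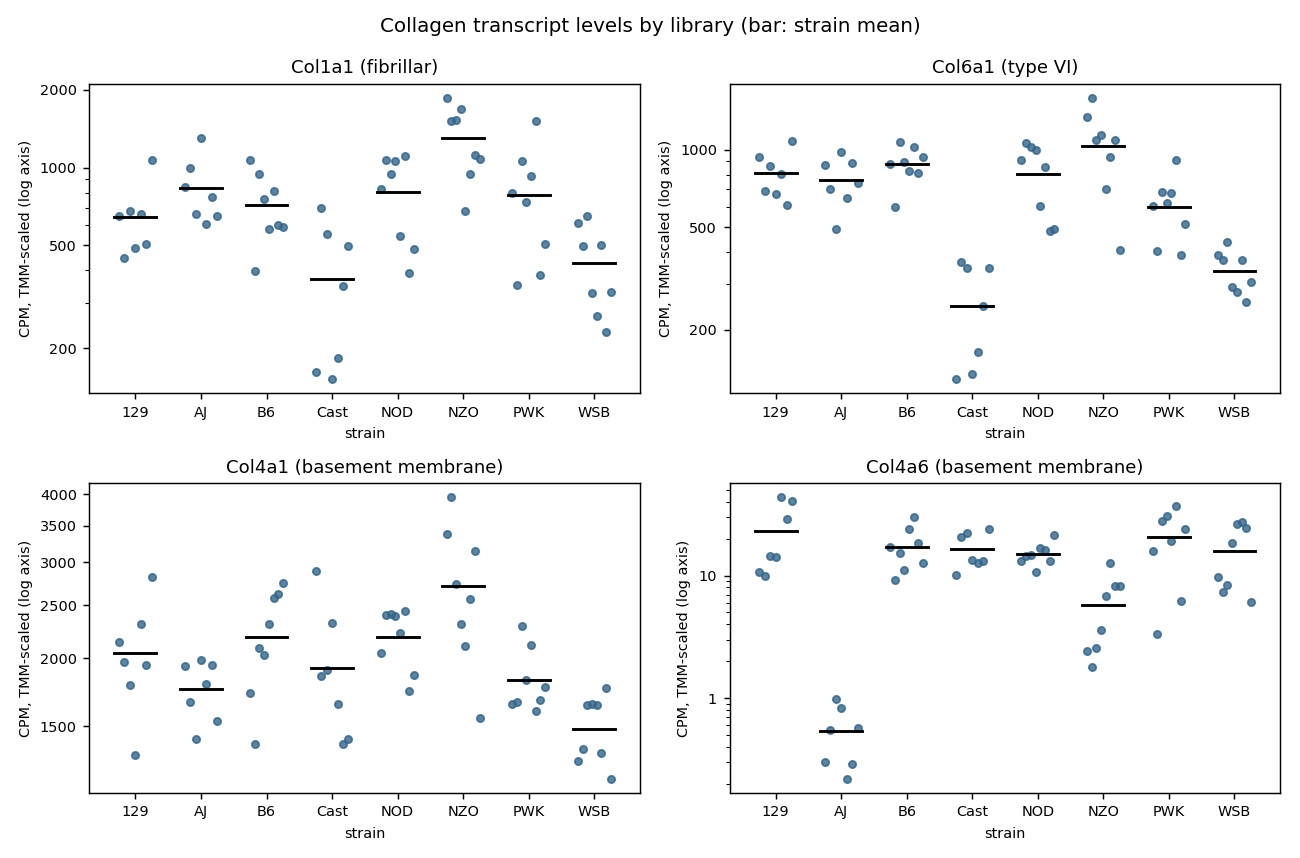
CPM of Col1a1, Col6a1, Col4a1 and Col4a6 in each of the 61 libraries on log axes, with a bar at the strain mean. Cast is lowest for Col1a1 and Col6a1 but not for Col4a1, and AJ stands alone for Col4a6, between 0.221 and 0.984 CPM.

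The minor type IV chains Col4a3 and Col4a4 had their lowest means in NZO, and Col4a4 had its highest in PWK. Col4a3 and Col4a4 pair with Col4a5 in a trimer best known from the kidney glomerulus. Col4a4 had 0.929, 2.72 and 6.49 CPM in NZO and 7.33, 20.9 and 53.7 in PWK (lowest, median and highest), with means of 6.58 to 12.9 elsewhere. It was lower in NZO (-1.99 ± 0.40, adjusted p = 3.07e-05) and higher in PWK (1.54 ± 0.29, adjusted p = 2.19e-05). Of neighbours in the order of levels, Cast over NZO differed for Col4a4 (1.25 ± 0.47, edgeR, adjusted p = 0.0176) and Col4a3 (0.96 ± 0.40, adjusted p = 0.0371). PWK over NOD did not differ for Col4a4 (0.86 ± 0.44, edgeR, adjusted p = 0.117). Col4a3 was lower in NZO (-1.84 ± 0.34), at 1.48 ± 0.688 CPM against 2.87 to 6.78, and its exons share 563 bases with C430014B12Rik on the opposite strand. Markers of other cell types moved with these genes in NZO, mesothelial ones among them. All 10 of 10 were lower there, and they summed to 33.3 to 238 CPM in NZO against 61.3 to 542 CPM in the other strains. Smooth muscle markers were lower for 6 of 7 in NZO (257 to 455 CPM summed, against 200 to 6139 CPM) and epithelial markers for 4 of 5 (1.12 to 10.7 CPM, against 1.9 to 110 CPM). Of all genes, 26.6% were lower in NZO. The part of these cell types in the NZO levels of Col4a3, Col4a4 and Col4a6 was not tested.

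Col4a6, on chromosome X (GRCm38, 141165403 to 141474076), had its lowest level in AJ. Together with Col4a5 it encodes the type IV trimer found in basement membranes of smooth muscle and some epithelia. AJ libraries held 0.221, 0.551 and 0.984 CPM (lowest, median and highest; 10 to 40 counts a library). The levels were 1.81, 5.19 and 12.7 CPM in NZO, 10.7, 14.7 and 21.3 in NOD, 6.06, 14.1 and 27.3 in WSB, 10.1, 13.5 and 24.1 in Cast, 9.27, 16.1 and 30 in B6, 3.31, 21.6 and 37.1 in PWK, and 10, 14.4 and 43.3 in 129. No AJ library overlapped any library of another strain, a separation that 0.167% of all genes showed for AJ. The log2 fold change in AJ was -4.83 ± 0.46 (edgeR, adjusted p = 1.41e-12, 7 of 7 libraries).

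This low AJ level also lowered the mean against which every other strain was set. Col4a6 was called higher in 129, B6, Cast, PWK and WSB, but none of these calls held when AJ was left out: the log2 fold changes were then 0.71 in 129 (adjusted p = 0.0776), 0.21 in B6, 0.14 in Cast, 0.50 in PWK and 0.09 in WSB. NZO remained lower, at -1.63 (adjusted p = 6.09e-05) without AJ and -0.91 (adjusted p = 0.0123) with it. In the order of levels, 129, PWK, B6, Cast, WSB, NOD, NZO, AJ, the last 2 steps differed, NOD over NZO (1.38 ± 0.39, adjusted p = 0.00337) and NZO over AJ (3.43 ± 0.47, adjusted p = 4.12e-08).

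Within NZO the libraries were uneven. Replicates 1 to 4 had 2.43, 1.81, 2.57 and 3.61 CPM of Col4a6, and replicates 5 to 8 had 6.77, 12.7, 8.22 and 8.27. Mesothelial markers summed to 33.3 to 47.7 CPM in the first 4 and 109 to 238 in the others, and epithelial markers to 1.12 to 2.88 CPM and 5.79 to 10.7 CPM. Xist was at 450 to 668 CPM in replicates 1 to 4 and at 2.11 CPM or less in replicates 5 to 8. The part of each in this split was not tested; with log2 Xist as a covariate the NZO log2 fold change of Col4a6 was -1.10 (adjusted p = 9.97e-04). In 129 the 3 libraries with summed genital duct markers of 304 to 1011 CPM (replicates 6, 7 and 9) had 43.3, 29 and 40.6 CPM of Col4a6, and the 4 others 10 to 14.4. Xist was at 4.19 CPM or less in those 3 and at 420 CPM or more in the 4 others.

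The upstream sequences of Col4a6 and Col4a5 are shown because the genes share 1 start region and yet part ways in AJ. The RefSeq start sites lie 1342 bases apart on opposite strands (GRCm38.p6). Each sequence is the 250 bases before the start, 5′ to 3′ on the strand of its gene, from the RefSeq promoter table. Capitals mark a CCAAT box (CCAAT or its reverse complement ATTGG), a GC box (GGGCGG or CCGCCC) or a TATA box (TATAAA or TTTATA). The Col4a6 window is chrX:141474077-141474326, minus strand, and that of Col4a5 is chrX:141475169-141475418, plus strand.
Col4a6: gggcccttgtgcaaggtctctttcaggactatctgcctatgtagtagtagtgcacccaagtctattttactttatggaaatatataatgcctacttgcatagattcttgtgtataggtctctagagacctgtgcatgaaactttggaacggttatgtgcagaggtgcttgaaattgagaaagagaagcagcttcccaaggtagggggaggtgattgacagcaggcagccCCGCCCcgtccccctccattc
Col4a5: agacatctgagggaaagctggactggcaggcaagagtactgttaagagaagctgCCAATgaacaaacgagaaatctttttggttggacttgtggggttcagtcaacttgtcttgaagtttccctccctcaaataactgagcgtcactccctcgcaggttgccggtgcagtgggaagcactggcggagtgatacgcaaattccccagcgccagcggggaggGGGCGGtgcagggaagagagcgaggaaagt
The Col4a6 window held 1 GC box match, and that of Col4a5 held 1 GC box and 1 CCAAT match. The sequence is that of the reference strain, C57BL/6J; the AJ sequence was not used here. In the 250 upstream bases of the 32851 windows of the table, 33.8% held a CCAAT match, 32.7% a GC box and 12.4% a TATA box. Of the same bases of 36 windows of 34 collagen genes, 12 held CCAAT (33.3%), 22 a GC box (61.1%) and 5 a TATA box (13.9%).

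Col4a5 itself did not share the AJ pattern. It averaged 24.8 ± 3.08 CPM in AJ and 26.4 to 45 CPM in the other strains, and its log2 fold change in AJ was -0.52 ± 0.26 (adjusted p = 0.135). The difference Col4a6 minus Col4a5 in log2 CPM was -5.55 ± 0.67 in AJ (SD, n = 7), and its mean in the other strains ran from -2.42 in NZO to -0.75 in 129. AJ differed from the mean of the others by -4.27 (permutation test of the strain labels, 2-sided, adjusted p = 1.60e-04, 7 of 7 libraries). This rests on a raw p of 1.00e-05, the smallest that 100000 permutations can give.

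8 such differences between chains were tested in each strain, 64 tests in all with p-values adjusted over them, and 13 were called. In type I collagen, Col1a1 minus Col1a2 was 0.16 ± 0.23 in NZO and -0.62 ± 0.24 in WSB (SD, n = 8 each), with means of -0.36 to 0.02 in the other strains. NZO differed from the mean of the other strains by 0.45 and WSB by -0.45 (permutation test, adjusted p = 3.66e-04 each, 8 of 8 libraries each).

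The pairs Col4a1 with Col4a2 and Col6a1 with Col6a2 stayed close to each other, with small but regular strain differences. Col4a1 minus Col4a2 was 0.83 ± 0.05 in PWK and 0.48 ± 0.07 in AJ, and 0.62 to 0.75 on average in the other strains (SD, n = 8 and 7). PWK differed from the others by 0.20 (adjusted p = 1.60e-04) and AJ by -0.20 (adjusted p = 3.66e-04), by permutation. Col6a1 minus Col6a2 was -0.20 ± 0.06 in PWK, against 0.05 on average in the others, a difference of -0.25 (permutation, adjusted p = 1.60e-04). It was 0.17 ± 0.07 in 129, a difference of 0.17 (permutation, adjusted p = 0.0216, and 0.0814 without the 5 libraries rich in genital duct markers). Col6a1 minus Col6a3 was 0.30 ± 0.58 in PWK, a difference of -0.47 (permutation, adjusted p = 0.0239, 5 of 8 libraries), and was not called without the 5 libraries rich in liver markers (-0.33, adjusted p = 0.206).

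In differences that involve Col4a1, Cast stood apart. Col4a1 minus Col6a1 was 3.03 ± 0.96 in Cast (SD, n = 7), with means of 1.23 to 2.14 in the other strains, and a difference of 1.52 (permutation, adjusted p = 1.60e-04, 7 of 7 libraries). Col1a1 minus Col4a1 in Cast lay -1.09 from the others (permutation, adjusted p = 0.004). This call was lost without Cast replicates 5 and 6 (-0.70, adjusted p = 0.0952), of which replicate 5 had the lowest Col1a1 level of all libraries. Col1a1 minus Col6a1 was lower in 129 (-0.52) and B6 (-0.49; permutation, adjusted p = 0.00992 each). Its difference of 0.43 in Cast (permutation, adjusted p = 0.0492) was not called without the 5 libraries rich in liver markers (0.36, adjusted p = 0.17) or without Cast replicate 8 (0.42, adjusted p = 0.0794).

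**Figure D4:**
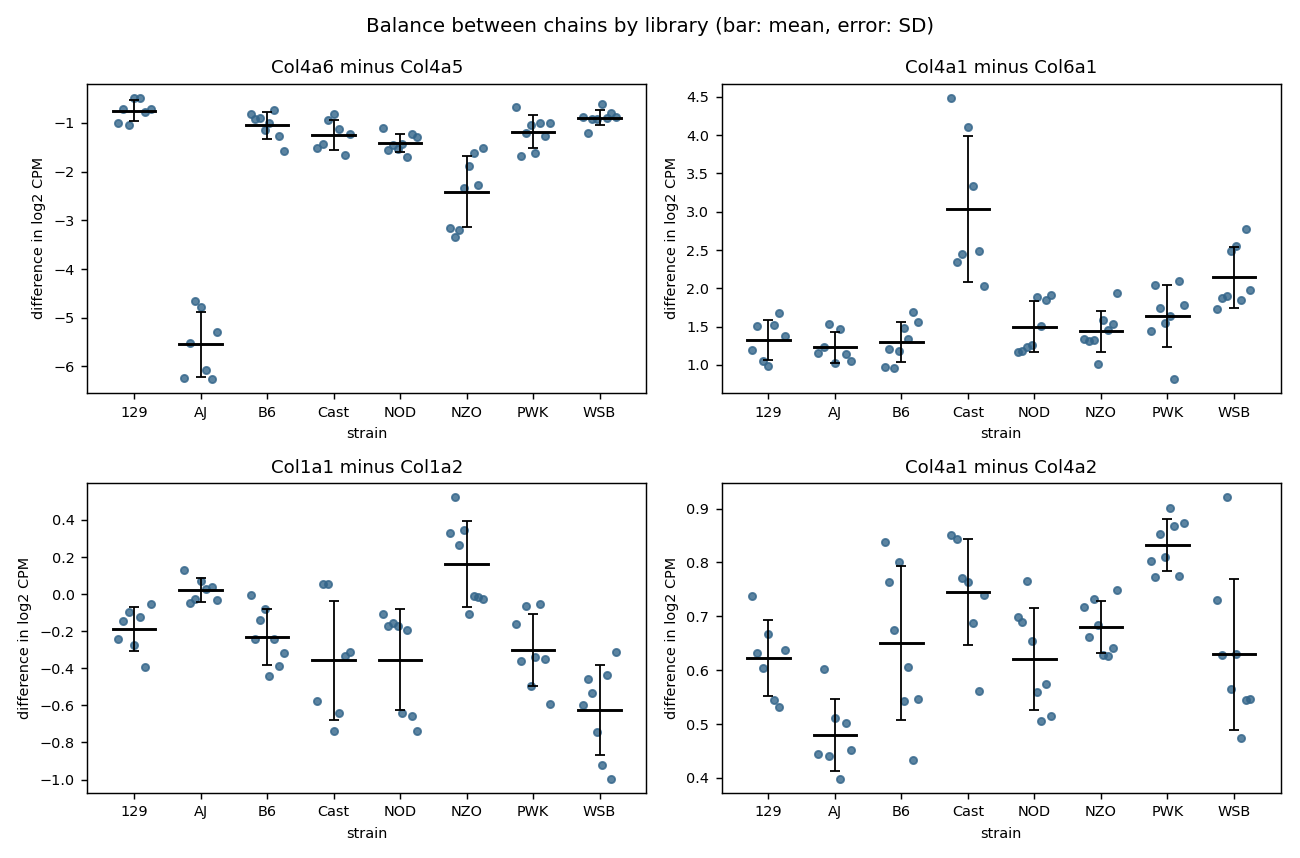
Difference in log2 CPM between 2 collagen chains in each library, with a bar at the strain mean and an error bar of 1 SD. Col4a6 minus Col4a5 separates AJ (mean -5.55), Col4a1 minus Col6a1 is highest in Cast (3.03), and the Col1a1 to Col1a2 and Col4a1 to Col4a2 differences stay within about 1 unit.

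Libraries of the same strain also differed together. With strain means removed, Col1a1 and Col6a1 correlated over the 61 libraries (Pearson r = 0.851, Spearman rho = 0.875, permutation within strains, adjusted p = 3.00e-05 over 3 relations for each). Without the 2 libraries farthest from the median, Cast replicate 5 and PWK replicate 2, r was 0.837, and within single strains it ran from 0.613 in NZO to 0.99 in WSB. Col1a1 and Col4a1 gave r = 0.138 and rho = 0.142 (permutation, adjusted p = 0.329 and 0.306), with values from -0.531 in Cast to 0.886 in NOD. For Col1a1 and Col4a6 r was 0.198 and rho 0.144 (permutation, adjusted p = 0.222 and 0.306). Within single strains its r ran widely, from -0.767 in NZO to 0.866 in Cast. Without the same 2 libraries r was 0.174 for Col4a1 and 0.112 for Col4a6.

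Across all genes of the table, those most like Col1a1 over the 61 libraries were Col1a2 (r = 0.953), Col3a1 (0.95), Col5a2 (0.873), Rcn3 (0.869) and Col6a1 (0.851). Rcn3 encodes a calcium-binding protein of the endoplasmic reticulum. For Col6a1 they were Col6a2 (0.975), Col5a2 (0.922), Col1a1 (0.851), Col3a1 (0.847) and Col6a3 (0.783). For Col4a6 they were its neighbour Col4a5 (0.865), Tenm3 (0.847), Susd2 (0.837), Slc4a3 (0.833) and Itgb4 (0.832). Itgb4 encodes a laminin-binding integrin of epithelia. These values are descriptions, since the libraries share tissue makeup and depth.

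The upstream windows of a fibrillar and a type VI gene are given for these covarying genes, with capitals as above. Col1a2 is chr6:4505368-4505617, plus strand, and Col6a1 is chr10:76726045-76726294, minus strand (GRCm38.p6, RefSeq).
Col1a2: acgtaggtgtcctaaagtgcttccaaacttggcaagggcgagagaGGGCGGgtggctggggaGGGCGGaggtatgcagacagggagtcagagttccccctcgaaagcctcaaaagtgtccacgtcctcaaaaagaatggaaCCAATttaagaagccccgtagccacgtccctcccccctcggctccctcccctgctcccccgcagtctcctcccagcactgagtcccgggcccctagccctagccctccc
Col6a1: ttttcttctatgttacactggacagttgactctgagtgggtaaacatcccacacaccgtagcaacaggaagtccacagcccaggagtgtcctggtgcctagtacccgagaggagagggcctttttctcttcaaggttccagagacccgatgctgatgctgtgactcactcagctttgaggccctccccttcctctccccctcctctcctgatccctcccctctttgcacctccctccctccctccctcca
Col1a2 held 2 GC box matches and 1 CCAAT match. None of the 3 motifs was found in the Col6a1 window.

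Multiplexins, basement membrane collagens whose ends can be released as anti-angiogenic fragments, were among the most reduced in Cast. Col15a1 had 29.1, 196 and 344 CPM in Cast (lowest, median and highest), and strain means of 355 in WSB and 566 to 893 in the rest. It was lower in Cast (-1.98 ± 0.26, adjusted p = 5.74e-09, 7 of 7 libraries) and WSB (-0.75, adjusted p = 0.00413) and higher in B6, AJ, NOD and NZO. Col18a1, the source of endostatin, averaged 73.8 ± 26.1 CPM in Cast and 98.6 ± 58.4 in WSB, against 161 to 357 in the others (SD, n = 7 and 8). Its log2 fold change was -1.64 ± 0.26 in Cast (adjusted p = 3.54e-07), -1.16 ± 0.24 in WSB (adjusted p = 4.58e-05) and 0.96 ± 0.21 in AJ (adjusted p = 3.49e-04).

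Fibril-associated chains, which decorate fibrils and link them to other matrix, were less uniform. Of 7 tested, 2 were lower in Cast, 3 lower and 1 higher in WSB, and 4 higher and 1 lower in PWK. These are 28.6%, 57.1% and 71.4% of the class, against 56.2%, 49.3% and 43.6% of all genes. Col14a1, the most expressed of them per kb, averaged 242 ± 119 CPM in PWK, against 99.8 to 202 in the other strains (0.84 ± 0.16, adjusted p = 2.17e-05). Col16a1 was lower in Cast, at 17.7 ± 8.67 CPM (-1.62 ± 0.26), and higher in NOD, at 87.3 ± 10.1 (1.02 ± 0.19). Col20a1 was higher in 129 (1.20 ± 0.22) and lower in PWK (-1.57 ± 0.27). Col22a1 was called higher in NZO, PWK and WSB, although its medians there were 0.187, 0.0701 and 0.0311 CPM and its highest libraries 5.06, 6.25 and 5.13. Col12a1, a chain of tension-bearing tissue, was higher in 129 (1.12 ± 0.27, 5 of 7 libraries) and lower in WSB (-0.93 ± 0.31). Its lowest, median and highest CPM in 129 were 26.9, 40.5 and 176, while the medians of AJ and NZO were 42.2 and 47.4. Col9a3 and Col19a1 reached at most 1.49 and 0.734 CPM in any library, and both were higher in PWK (0.77 ± 0.22 and 1.14 ± 0.38).

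Of 4 network-forming and anchoring chains, 2 were higher and 1 lower in Cast (75%, against 56.2% of all genes). No more than 1 was called in any other strain (0% to 25%, against 18.6% to 53.9% of all genes). Col8a1, a chain of vessel walls, was lower in Cast (-1.02, adjusted p = 0.00292) and higher in NZO (0.77, adjusted p = 0.00576). Col8a2 was higher in NOD, at 9.6 ± 4.57 CPM against 2.76 to 6.2 (1.21 ± 0.23, adjusted p = 4.84e-05), and Col7a1, which anchors epithelial basement membranes, was higher in Cast (0.93 ± 0.30) and lower in PWK (-1.02 ± 0.34), a call lost without the libraries rich in liver markers (-0.97, adjusted p = 0.0737). Col10a1, known from growth plate cartilage, was higher in Cast (1.74 ± 0.37) at a mean of 0.398 CPM.

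Among the 4 transmembrane collagens, the calls of Col23a1 in 129 and of Col25a1 in AJ went with a few libraries, and B6 was also uneven for Col23a1. Col23a1 was called higher in 129 (1.82 ± 0.33, adjusted p = 2.28e-05), where replicates 6, 7 and 9 had 41.9, 22.8 and 34.9 CPM and the others 2.26 to 4.18. These 3 libraries are those with genital duct markers of 304 to 1011 CPM and smooth muscle markers of 2428 to 4660 CPM. Without the 5 libraries over 300 CPM of genital duct markers the value was -0.43 (adjusted p = 0.493). Only replicates 1 to 4 of 129 then remained, all with Xist at 420 CPM or more, while the 3 left out were at 4.19 CPM or less. The genital duct markers, the smooth muscle markers and Xist therefore cannot be told apart here. Of the 12 genital duct markers, 3 (Crisp1, Rnase10 and Ovgp1) were summed. Col23a1 was also called higher in B6, with 2.33, 6.72 and 40.4 CPM (lowest, median and highest). That call was lost with limma on the deposited log2 values (0.62, adjusted p = 0.0735). The strains 129 and B6 did not differ from each other (0.47 ± 0.49, edgeR, adjusted p = 0.66). B6 replicates 5 and 6 had 298 and 1040 CPM of genital duct markers, whose part in the B6 level was not tested. Col25a1, a chain best known from neurons, was called higher in AJ (1.95 ± 0.50), with a median of 0.131 CPM there and 1 library at 3.49. Col13a1, a chain of cell adhesion sites, was higher in PWK, at 2.49 ± 0.628 CPM, and AJ, at 2.11 ± 0.535, and lower in WSB, at 0.573 ± 0.266. Col17a1, a hemidesmosome chain of epithelia, had at most 0.173 CPM in Cast and was lower there (-2.89 ± 0.53).

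Col28a1, a small collagen described around Schwann cells of peripheral nerve, set B6 apart. Its lowest, median and highest CPM were 7.99, 12.6 and 19 in B6. They were 2.93, 5.03 and 5.62 in WSB, 2.52, 4.54 and 5.78 in 129, 1.17, 1.79 and 5.67 in Cast, 0.387, 1.78 and 2.21 in PWK, 1.05, 1.33 and 2.09 in NZO, 0.819, 1.39 and 2.09 in NOD, and 0.399, 0.813 and 2.08 in AJ. All B6 libraries lay above every other library, as for 0.177% of all genes. The log2 fold change in B6 was 2.65 ± 0.17 (edgeR, adjusted p = 2.31e-19), and in AJ it was -1.56 ± 0.25 (adjusted p = 2.40e-06). Besides Col4a6 in AJ and Col28a1 in B6, no collagen separated a strain from all other libraries. Of all genes, 1.37% did so for Cast, 0.903% for PWK, 0.855% for NZO, 0.554% for WSB, 0.151% for NOD and 0.124% for 129.

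Col26a1 was also singled out after its values were seen. In NZO replicates 1 to 4 held 5.22, 4.33, 3.99 and 2.94 CPM and replicates 5 to 8 held 0.166, 0.235, 0.612 and 0.487. Every other strain averaged 0.463 CPM or less. Its log2 fold change in NZO was 3.82 ± 0.44 (edgeR, adjusted p = 8.01e-11), and the split is between the same libraries as that of Col4a6 and of Xist.

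**Figure D5:**
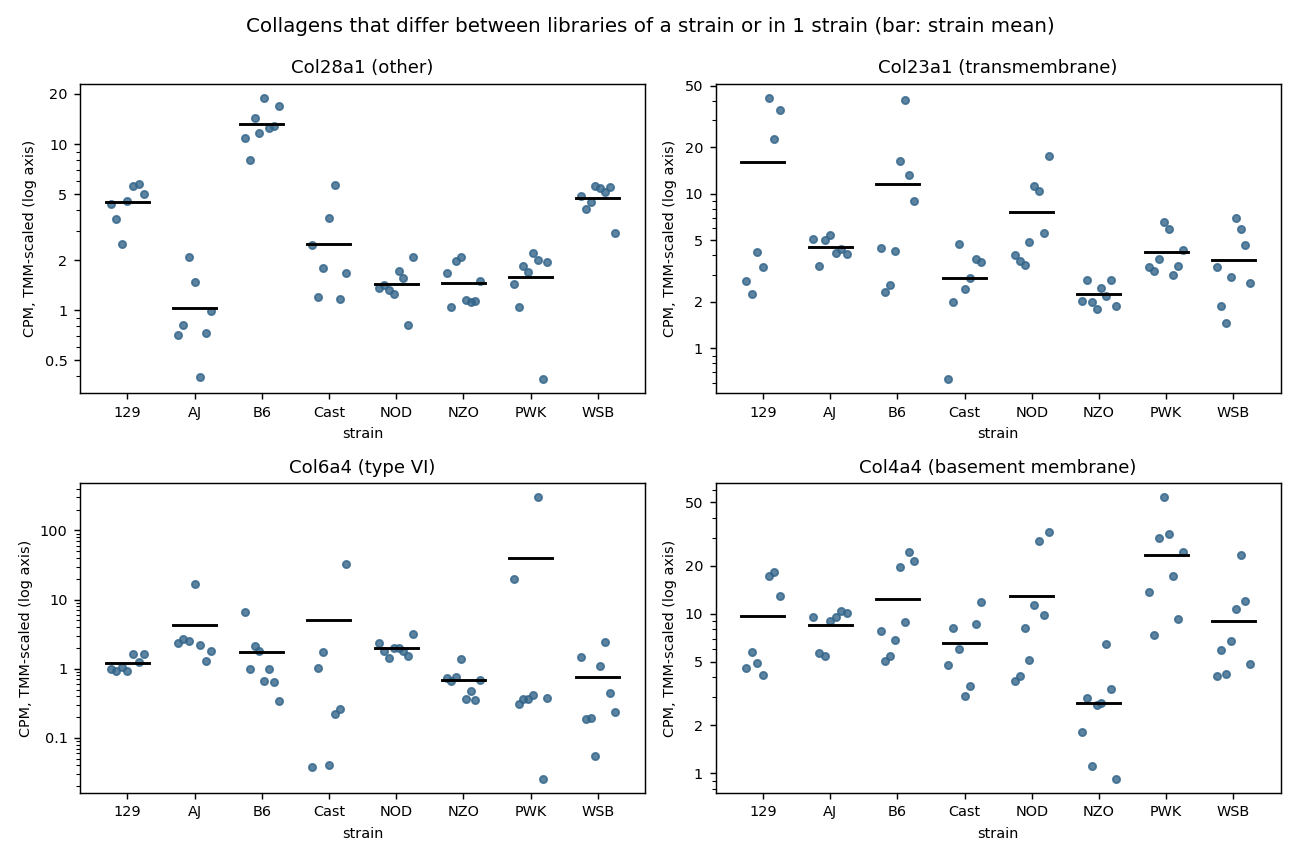
CPM of Col28a1, Col23a1, Col6a4 and Col4a4 in each library on log axes, with a bar at the strain mean. Col28a1 is high in all 8 B6 libraries (7.99 to 19 CPM), whereas Col23a1 in 129 and Col6a4 in PWK are raised by 3 and 2 libraries.

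Genes that make, cross-link and bind collagen were examined as a list of 70. In WSB 4 were higher and 44 lower, in Cast 7 and 34, and in NZO 26 and 15, with median log2 fold changes of -0.40, -0.29 and 0.19. The called shares of the list were 68.6% in WSB, where 49.3% of all genes were called, 58.6% in Cast (56.2%) and 58.6% in NZO (53.9%), so those of Cast and NZO were near the background. NOD had 21 higher and 1 lower (31.4%, against 26.5% of all genes), B6 18 and 5 (32.9%, against 26.3%), PWK 16 and 8 (34.3%, against 43.6%), AJ 12 and 2 (20%, against 23.0%), and 129 5 and 4 (12.9%, against 18.6%). All 6 cross-linking genes were lower in WSB, where 23.7% of all genes were lower. Lox, a lysyl oxidase that starts the cross-links, averaged 54.7 CPM in WSB, against 115 in the other strains (-1.06 ± 0.19), and 149 in NZO, against 102 (0.60 ± 0.16).

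Of 19 modification and folding genes, 2 were higher and 12 lower in WSB, 1 and 10 in Cast, and 8 and 3 in NZO. These are 73.7%, 57.9% and 57.9% of the list, against 49.3%, 56.2% and 53.9% of all genes. The shares of Cast and NZO were thus near the background. Serpinh1, the collagen chaperone, averaged 346 CPM in Cast against 527 (-0.59 ± 0.15) and 627 in NZO against 487 (0.39 ± 0.13). Creb3l1, a transcription factor that activates type I collagen genes, was lower in Cast (-0.72) and WSB (-0.71) and higher in NZO (0.63). P4ha1, a proline hydroxylase subunit, went against the list in WSB at 114 CPM against 61.2 (0.91 ± 0.13).

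Among 9 fibril-binding genes, 2 were higher and 6 lower in Cast, and 0 higher and 6 lower in WSB. These are 88.9% and 66.7% of the list, against 56.2% and 49.3% of all genes. Sparc, a collagen-binding glycoprotein, averaged 1145 CPM in Cast against 2684 (-1.19 ± 0.18), while Dcn, a proteoglycan that coats fibrils, was higher in Cast (0.36 ± 0.12) and lower in NZO (-0.43 ± 0.12). Of the receptors, Mrc2, which takes up collagen for breakdown, was higher in NZO (1.59 ± 0.27) and lower in WSB (-1.80 ± 0.35) and Cast (-0.87 ± 0.35). Lair1, a collagen receptor of immune cells, averaged 30 CPM in NZO against 3.56 (3.40 ± 0.22). Macrophage markers summed to 1873 to 5819 CPM in NZO and 249 to 2280 in the other strains. All 7 gene identifiers of that list were higher in NZO, where 27.2% of all genes were higher. Their part in the NZO collagen levels was not tested.

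The remaining 14 basement membrane genes, laminins, nidogens and perlecan, were 2 higher and 5 lower in Cast, 2 and 9 in WSB and 4 and 7 in NZO. The called share was 50% in Cast, below the 56.2% of all genes, and 78.6% in WSB and in NZO, against 49.3% and 53.9%. Nid1, which ties laminin to type IV collagen, averaged 452 CPM in Cast against 1226 (-1.38 ± 0.14). Lamc1, the common laminin chain, was at 534 CPM in Cast against 536 (0.00 ± 0.07). In Cast, mesothelial markers were higher for 8 of 10, where 29.6% of all genes were higher. Their part in the levels of these genes was not tested.

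Fibroblast and progenitor markers stand for the main source of fibrillar chains. They were called about as often as other genes in Cast and WSB, where most calls were lower, and less often in NZO. In Cast 1 of 8 was higher and 4 lower, in WSB none higher and 4 lower, and in NZO 1 higher and 2 lower. These are 62.5%, 50% and 37.5% of the list, against 56.2%, 49.3% and 53.9% of all genes. Of all genes, 26.6% were lower in Cast and 23.7% in WSB. Median log2 fold changes of the list were -0.59 in Cast, -0.32 in WSB and -0.03 in NZO. Pdgfra, the usual progenitor marker, averaged 136 CPM in Cast (0.07 ± 0.14, adjusted p = 0.678), 102 in WSB (-0.40 ± 0.14, adjusted p = 0.012) and 135 in NZO (0.07 ± 0.13, adjusted p = 0.682). The summed list ran from 498 to 895 CPM in Cast, 464 to 790 in WSB and 957 to 1430 in NZO, with 464 to 1712 CPM over all libraries. Its mean was lowest in WSB (619 CPM) and Cast (691), against 913 to 1381 in the other strains. None of the 8 was at 0 in a strain mean, and the part of cell makeup in the collagen levels was not tested.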

How the data were processed

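The authors deposited expected counts for 21169 genes in 61 adipose mRNA libraries and a matrix of variance-stabilised values on a log2 scale. The submitters' processing notes name DESeq2 and build GRCm38, without saying which step used them. Aligner, counting tool and strandedness of counting are not given in the sources used here, so overlapping and antisense genes cannot be told apart. Of the deposited counts, 21.1% were not whole within 1e-06, so they were treated as estimates. Counts were rounded. Genes low in every strain were removed with filterByExpr, leaving 18603, and the rest were fitted in edgeR 4.0.16 (R 4.3.3) with TMM scaling, 1 mean per strain and robust quasi-likelihood dispersion, and p-values adjusted by Benjamini-Hochberg. Gene coordinates are the authors' deposited positions, converted from Mb to bases; exon lengths and overlaps are from the GENCODE annotation of GRCm38. CPM of single genes are TMM-scaled, with a prior count of 2 where logged. Summed markers and shares of counts use the plain library total, without TMM. Chain differences were tested with 100000 2-sided permutations of strain labels. The tests were tried on simulated data. Named genes were the 3 markers Col1a1, Col6a1 and Col4a6, the most expressed and most strain-dependent chain of each class, and the 3 largest called changes in each direction per strain with a mean of at least 1 CPM, with the chains of the tested differences and the 5 genes most like each marker. Other collagens are named so that every member is accounted for, and examples from the other lists were chosen after their values were seen. Members, lists and tests were chosen with earlier results of these data known. Alternatives were RLE scaling, other filters, DESeq2 1.42.0, limma 3.58.1 on the deposited log2 values, a replicate block, Xist as a covariate, and libraries left out. Some results on single genes of the other lists are not reported here.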

Additional observations from a re-analysis of the deposited data

Results flagged for a closer look

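For 28 named or paired collagens in 8 strains, 8 of 224 groups held 1 library apart from the rest of its strain by Dixon's test, and chance alone marks about 1 group in 20. In NZO, Col15a1 stood at 171 CPM in replicate 8, where the other NZO libraries had 537 to 1117, and Col18a1 at 131 CPM in the same library, against 233 to 349. In B6, replicate 2 was low for Col1a2, at 468 CPM against 733 to 1073 in the other B6 libraries, and for Col6a2, at 522 against 758 to 989. In AJ, replicate 4 was high for Col6a3, at 763 CPM against 321 to 439, and for Col6a4, at 16.8 against 1.29 to 2.73. Skeletal muscle markers summed to 2507 CPM in that library, the highest of all; their part was not tested. Col4a5 in AJ was low in replicate 5, at 18.2 CPM against 24.4 to 27.5, and Col28a1 in PWK was low in replicate 7, at 0.387 CPM against 1.04 to 2.21.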

How the results depend on the processing

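Over the alternatives, the collagens called by the F-test numbered 30 to 40, and those called per strain 24 to 29 in NZO, 20 to 24 in Cast, 20 to 25 in WSB, 12 to 17 in PWK, 9 to 15 in NOD, 8 to 12 in B6 and 7 to 12 in AJ; 12 to 13 chain differences were called. The collagen counts have unlike denominators: 32 were tested at a mean of at least 1 CPM, 43 without a filter and 41 otherwise. Of all genes, the F-test called 13468 of 14398 and 17828 of 21169 under these 2 filters, and 16718 of 18603 in the main fit. In 129 the count was 9 to 14, except for 2 without the 5 libraries over 300 CPM of genital duct markers (129 replicates 6, 7 and 9, B6 replicate 6 and NOD replicate 6). Of all genes, 2036 of 19129 were called in 129 in that setting. There the sign of Col23a1 in 129 also turned, to -0.43. All 5 of these libraries had Xist at 4.19 CPM or less, so their markers and Xist cannot be told apart in this setting. Without the 5 libraries over 500 CPM of liver markers Col6a1 in PWK was at 0.13, in place of -0.06, both uncalled. Alternatives chosen after seeing the data were Col4a6 with AJ left out, which turned NOD to -0.02, and Col6a4 in PWK without replicates 1 and 6, at -2.48. Of the values of single genes and chain differences under an alternative, 959 kept direction and side of the threshold, 36 lost the call, 11 gained one and 4 turned. The cause of these changes was not tested. With the replicate number as a block, Col4a6 in NOD was called (0.76, adjusted p = 0.0199), Col6a4 in NZO was not (-1.84, adjusted p = 0.0885), a call also lost with DESeq2 (-1.06), limma (-0.52), Xist as a covariate (-2.06) and 4 sets of libraries left out, and Col1a1 in NZO stayed at 1.05; of 186 same-numbered pairs of libraries from different strains, 96 correlated above 0.1 (median 0.108, lowest -0.444), against 418 of 1441 differently numbered pairs (median -0.0184). The numbers were not taken as pairs, since not every pair passed 0.1, but they carry some shared deviation, and in several strains low and high numbers also differ in Xist. Depth limits Col24a1, Col26a1, Col17a1 and Col4a6 in AJ, which rest on few counts.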
